A study of Homo sapiens with 4 samples.

Results

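The genes ID1, ID2, ID3 and ID4, which encode the inhibitor of DNA binding proteins, were followed together with SMAD7 and BAMBI, a pair of feedback genes of the bone morphogenetic protein (BMP) pathway. These 6 genes were taken by name from a table of 16174 genes, and each was found once. H9, a long-used human embryonic stem cell line in the primed state, had been transfected with a transposon carrying a doxycycline-inducible dCas9-BFP-KRAB, a nuclease-dead Cas9 with a fluorescent tag and a repressor domain (CRISPR interference), and had been selected with puromycin. One arm carried 4 pooled guides against the long non-coding RNA gene SNHG26 and the other carried non-targeting control guides. Both arms received doxycycline, and poly(A) RNA was read as nanopore cDNA after 2 or 3 days, with 1 library per arm and day. Each arm therefore has 2 libraries that differ in day, every spread within an arm includes the day, and no label says that the libraries come from separate cultures.

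BMP ligands bind paired serine/threonine kinase receptors, which phosphorylate SMAD1, SMAD5 and SMAD9. These join SMAD4 in the nucleus, and ID genes are among their best-known direct targets. ID proteins keep a helix-loop-helix dimerization domain but lack the basic region that contacts DNA, so they tie up E proteins such as TCF3 and keep tissue-specific basic helix-loop-helix (bHLH) factors from acting. SMAD7 blocks the activated receptors and BAMBI is a decoy receptor without a kinase. In primed human stem cells strong BMP signalling drives cells out of pluripotency, toward mesoderm and toward amnion- or trophoblast-like fates, and ID transcripts are commonly read as its early response.

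Of the 6 genes, 3 had a value in every library (ID1, ID2 and ID3), and 3 were listed at 0 in every library (ID4, SMAD7 and BAMBI). The 250 bases before the start of the 3 genes with values are shown with those of BAMBI, the listed-at-0 gene richest in the motif GGCGCC, because the 4 windows differ in the short motifs they hold. They are from RefSeq (GRCh38.p14), 5′ to 3′ on the strand of the gene, and capitals mark matches, on either strand, to GGCGCC (a SMAD-type palindrome), to GTCTG (the SMAD box), to CCAAT (the CCAAT box) or to TATAAA (the TATA box).
ID1 (chr20:31605039-31605288, plus strand): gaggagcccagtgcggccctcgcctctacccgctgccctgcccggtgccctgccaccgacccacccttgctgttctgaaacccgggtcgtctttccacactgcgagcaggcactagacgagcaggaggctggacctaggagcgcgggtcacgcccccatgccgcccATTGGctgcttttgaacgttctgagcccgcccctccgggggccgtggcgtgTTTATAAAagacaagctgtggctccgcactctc
ID2 (chr2:8681806-8682055, plus strand): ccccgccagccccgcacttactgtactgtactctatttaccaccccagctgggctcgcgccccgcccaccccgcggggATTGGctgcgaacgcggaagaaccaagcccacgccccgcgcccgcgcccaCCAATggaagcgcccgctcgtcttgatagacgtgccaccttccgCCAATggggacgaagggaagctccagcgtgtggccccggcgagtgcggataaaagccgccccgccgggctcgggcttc
ID3 (chr1:23559502-23559751, minus strand): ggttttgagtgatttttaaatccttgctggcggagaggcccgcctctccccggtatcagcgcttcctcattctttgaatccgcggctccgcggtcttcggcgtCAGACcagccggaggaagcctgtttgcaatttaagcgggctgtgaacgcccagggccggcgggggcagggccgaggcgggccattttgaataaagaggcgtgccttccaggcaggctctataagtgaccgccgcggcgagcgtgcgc
BAMBI (chr10:28677271-28677520, plus strand): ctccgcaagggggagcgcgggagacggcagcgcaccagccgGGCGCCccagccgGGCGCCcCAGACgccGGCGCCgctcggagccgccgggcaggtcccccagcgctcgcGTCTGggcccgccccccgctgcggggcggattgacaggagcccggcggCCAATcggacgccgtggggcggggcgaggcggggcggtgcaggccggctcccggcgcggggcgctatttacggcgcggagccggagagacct

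GGCGCC, a palindrome of the GC-rich kind that BMP-activated SMADs bind, was absent from these windows of ID1, ID2, ID3, ID4 and SMAD7 (3 start sites) and occurred 3 times in that of BAMBI. Of 35116 RefSeq promoter windows of this length, 16.4% held it. G and C made up 81.2% of the BAMBI window, against 66% for ID1, 69.2% for ID2 and 62% for ID3. The share of windows with GGCGCC among those as rich in G and C was not computed. GTCTG, or CAGAC on the other strand, occurred 1 time for ID3, 1 time for ID4 and 2 times for BAMBI, occurred 2, 1 and 0 times for the 3 starts of SMAD7, was absent for ID1 and ID2, and was held by 38% of all windows. CCAAT, or ATTGG on the other strand, occurred once for ID1, 84 bases before the start, and 3 times for ID2, at 172, 122 and 78 bases. It occurred 1 time each for ID4 and BAMBI, was absent for ID3 and the 3 starts of SMAD7, and was held by 32% of all windows. TATAAA was found in ID1 on both strands as overlapping matches that form 1 run of capitals, 33 and 31 bases before the start. It also occurred 1 time for ID4 and at 1 of the 3 starts of SMAD7. It was absent for ID2, ID3 and BAMBI, and was held by 10.7% of all windows. In BAMBI no 2 of the marked motifs overlap. These matches describe the letters of the window and show no binding, and they do not cover the BMP response element described farther upstream of ID1.

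ID3 stood highest of the 6 genes. The table lists it on the minus strand of chromosome 1 from 23557926 to 23559501 (GRCh38). All levels are in TPM (transcript abundance scaled to a fixed total per library) as deposited, which here divide reads by the genomic span, introns included. With the SNHG26 guides ID3 stood at 1220 TPM on day 2 and 1427 TPM on day 3, and with the control guides at 883 TPM on day 2 and 1110 TPM on day 3. Both knockdown libraries lay above both control libraries, so the arms did not overlap. ID3 ranked from 108 to 146 among all listed genes in the 4 libraries.

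ID1 was the next in level. Its listed region runs over 33502 bases of chromosome 20 (31573014 to 31606515, plus strand), whereas RefSeq places the gene in the last part of that span, from 31605289 to 31606510. ID1 stood at 274 TPM on day 2 and 411 TPM on day 3 with the SNHG26 guides, and at 237 TPM on day 2 and 341 TPM on day 3 with the control guides. Here the day 3 libraries lay above the day 2 libraries in both arms, while the arms overlapped. The listed span shares 4910 bases with HM13, on the same strand, which stood between 8.82 and 12.4 TPM.

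ID2 was the lowest of the 3. Its listed region is 8678845 to 8684461 of chromosome 2, plus strand. With the SNHG26 guides it stood at 66.2 TPM on day 2 and 74.5 TPM on day 3, and with the control guides at 20.03 TPM on day 2 and 65.5 TPM on day 3. The control library of day 2 stood apart from the others, which lay within 65.5 to 74.5 TPM. In rank among all listed genes, ID2 stood between 956 and 997 in those 3 libraries and at 2088 in the control library of day 2.

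**Figure D1:**
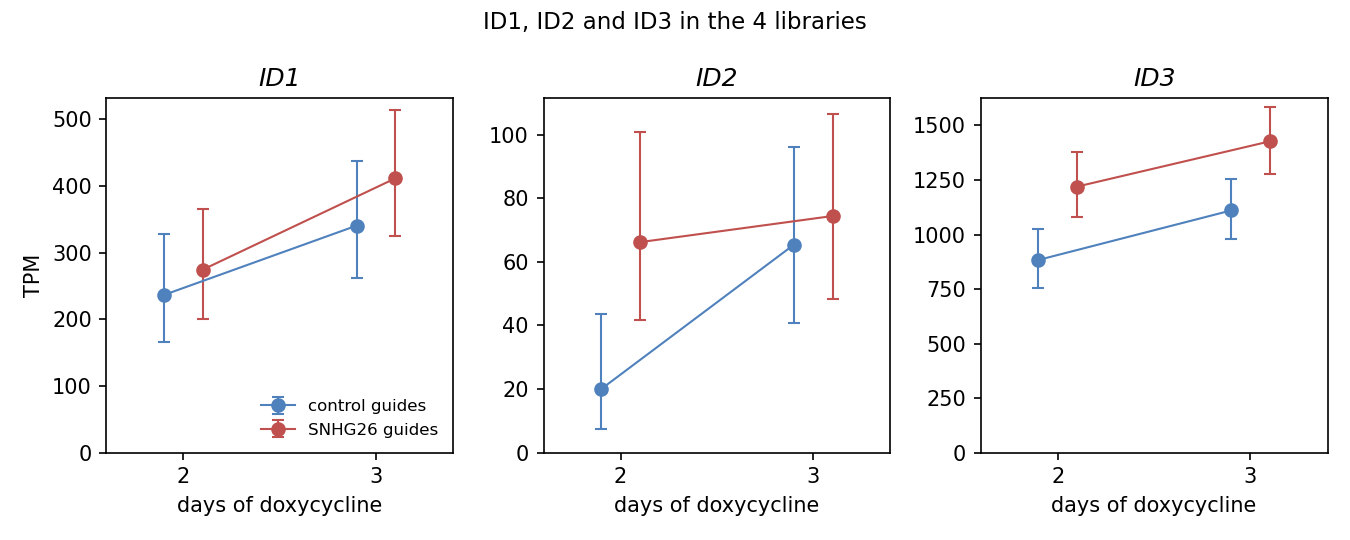
TPM (vertical axis, from 0) of ID1, ID2 and ID3 against days of doxycycline, with 1 point per library and lines joining the libraries of an arm. Bars are 95% Poisson intervals of the estimated reads, counting error only. The control library of day 2 is the lowest point in each panel, and for ID2 it stands at 20.03 TPM against 65.5 TPM or more elsewhere.

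The order ID3, ID1, ID2 held in each of the 4 libraries. The TPM ratio of ID3 to ID1 ran from 3.26 to 4.45. The ratio of ID3 to ID2 was 18.4, 19.2 and 17.0 in 3 libraries, and 44.1 in the control library of day 2. Summed over the 3 genes, the level was 1560 and 1913 TPM with the SNHG26 guides on day 2 and day 3, and 1140 and 1516 TPM with the control guides. ID3 supplied most of each sum.

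The reads behind these levels were few. For a 10 kb gene, a single read equals 0.653 to 0.803 TPM, depending on the library. On the RefSeq span of 1576 bases, the ID3 levels correspond to 264 and 344 reads with the SNHG26 guides (day 2, day 3) and 173 and 261 reads with the control guides. On 1222 bases, those of ID1 correspond to 46.0 and 77.0 reads and to 36.0 and 62.0 reads. ID2, on 2406 bases, corresponds to 21.9 and 27.4 reads with the SNHG26 guides and to 6 and 23.4 reads with the control guides. The counts depend on which transcripts were counted: with every read on the listed span, ID2 would rest on 14.0 to 64.0 reads and ID1 on 986 to 2110 reads.

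Exact 95% Poisson intervals of the rounded reads give the counting error alone, since amplified reads are not independent molecules. For ID3 on day 2 the interval was 1078 to 1378 TPM with the SNHG26 guides and 755 to 1023 TPM with the control guides. On day 3 the intervals were 1279 to 1585 TPM and 981 to 1256 TPM. The intervals of the arms did not overlap on either day. For ID2 on day 2, the intervals were 41.8 to 101 TPM and 7.35 to 43.6 TPM, which overlap narrowly. Those of ID1 overlapped widely between the arms on both days, at 201 to 366 TPM against 166 to 328 TPM on day 2.

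ID4, SMAD7 and BAMBI are named here with what a count of 0 allows, taken as 3 reads on the listed span. The upper bound of the exact 95% interval is a little higher, at up to 6.14 TPM for ID4, 0.952 TPM for SMAD7 and 5.48 TPM for BAMBI. ID4 (chromosome 6, 19837370 to 19842197, plus strand) is the fourth member of the ID family, and the 3-read limit is 4.06 to 4.99 TPM, depending on the library. SMAD7 (chromosome 18, 48919853 to 48950965, minus strand) has a longer span, and the limit is 0.630 to 0.775 TPM. For BAMBI (chromosome 10, 28677510 to 28682932, plus strand) it is 3.61 to 4.44 TPM. Even at those limits each would stand below the lowest ID2 level. They assume the full span of each gene and would be higher on a shorter transcript. GENCODE lists a SMAD7 transcript that spans 8772 bases and an ID4 transcript that spans 3299 bases. A value of 0 in this table need not mean an absent transcript: 1873 of 13693 protein-coding genes were listed at 0 in every library, ZIC2, a transcription factor of primed cells, among them.

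The cells carried the markers of the labelled type. Of 12 markers of primed pluripotent cells 11 were in the table, with ZIC2 at 0, and they summed to 1690 and 1812 TPM with the SNHG26 guides (day 2, day 3) and to 1818 and 1920 TPM with the control guides. POU5F1 supplied most of each sum, at 1050 to 1212 TPM, and LIN28B averaged 0.928 TPM. Of the 9 tested, 4 were higher and 5 lower with the SNHG26 guides. DPPA4 was among the lower, at 210 and 183 TPM against 315 and 266 TPM (limma unadjusted p 0.0395, adjusted p 0.935). The few listed markers of cell types that BMP can induce were near 0, and the markers not listed could not be read. Of 9 amnion and trophectoderm markers 3 were listed, GABRP and ISL1 at 0 in every library, and the sum was 0 and 0.417 TPM with the SNHG26 guides and 0 and 1.29 TPM with the control guides. Of 5 mesendoderm markers 2 were listed. EOMES was at 0 and MIXL1 gave the whole sum, 1.98 TPM in the control library of day 3 and 0 elsewhere. Of 4 definitive endoderm markers 2 were listed. FOXA2 was at 0 and CXCR4 stood at 3.84 and 3.44 TPM with the SNHG26 guides against 0 and 1.77 TPM. Of 4 neuroectoderm markers the one listed, DCX, lay at 0.0901 TPM or below. Fibroblast markers (COL1A1 and COL1A2 of 5) summed to 7.95 and 7.99 TPM against 10.7 and 11.9 TPM. COL1A2 was lower in the knockdown arm on both days. COL1A1 was higher there on day 2 (4.16 against 3.21 TPM) and lower on day 3 (2.98 against 4.21 TPM). The part of CXCR4-expressing cells or fibroblasts in the results was not tested. The target, SNHG26, was listed at 0 and 0.933 TPM with its guides and at 2.98 and 4.03 TPM with control guides. Its reads were not estimated, and no gene, SNHG26 included, passed limma's threshold between the arms.

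The guide comparison asked whether ID transcripts differ when SNHG26 is repressed. All 3 measured ID genes were higher with the SNHG26 guides on day 2 and again on day 3, and none passed the test. Averaged over its libraries, ID3 stood at 1323 ± 147 TPM in the knockdown arm against 997 ± 160 TPM in the other (SD, n = 2). Within days its ratio was 1.38 (day 2) and 1.29 (day 3). On log2(TPM + 1) the mean difference was 0.41 (SE 0.17), with a limma unadjusted p of 0.0745 and an adjusted p of 0.935 over 8274 genes. It was 0.25 without the control library of day 2, and up to 0.58 with another library left out. ID3 keeps many cell types cycling and undifferentiated, and of the 3 it had the smallest limma p between the arms.

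ID2, which binds E proteins and also the retinoblastoma protein, stood at 70.3 ± 5.82 TPM against 42.7 ± 32.1 TPM (SD, n = 2). The ratio was 3.31 (day 2) and 1.14 (day 3), and the log2 difference 0.93 (SE 0.62, limma adjusted p 0.935). Single libraries decide this value: the difference was 0.10 without the control library of day 2 and 1.76 without the control library of day 3 (limma unadjusted p 0.0129), and its adjusted p ran from 0.325 to 0.890 over the libraries left out. Both knockdown libraries lay above both control libraries, though by only 66.2 against 65.5 TPM at the closest.

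ID1, the family member most often used to read BMP activity, stood at 343 ± 96.9 TPM against 289 ± 73.5 TPM (SD, n = 2). The ratios of 1.16 (day 2) and 1.21 (day 3) gave a log2 difference of 0.24 (SE 0.31, limma adjusted p 0.963). The difference became -0.05 without the SNHG26-guide library of day 3 and -0.02 without the control library of day 2, and 0.53 and 0.50 without the other library of each arm, settings in which the arms no longer hold the same days. Between the arms ID1 therefore differed by less than the spread within them.

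Across the whole table, limma passed 0 genes between the arms (0.0% of 8274 tested), and 337 genes (4.07%) had an unadjusted p under 0.05. None of the 3 measured ID genes was among either. Groups that do not overlap, with the knockdown libraries higher, were seen for 16.1% of genes, and for ID2 and ID3 here. A higher level with the SNHG26 guides on both days was seen for 24.8% of genes, and for ID1, ID2 and ID3. Among the 2032 genes averaging 20 TPM or more, which all 3 do, the shares were larger, 22.5% without overlap and 35.8% higher on both days. With 2 libraries against 2, an exact two-sided permutation test cannot give a p below 0.333, which ID2 and ID3 reached and ID1 did not (0.667). In bulk RNA, more transcript per cell and more cells with the transcript cannot be told apart.

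**Figure D2:**
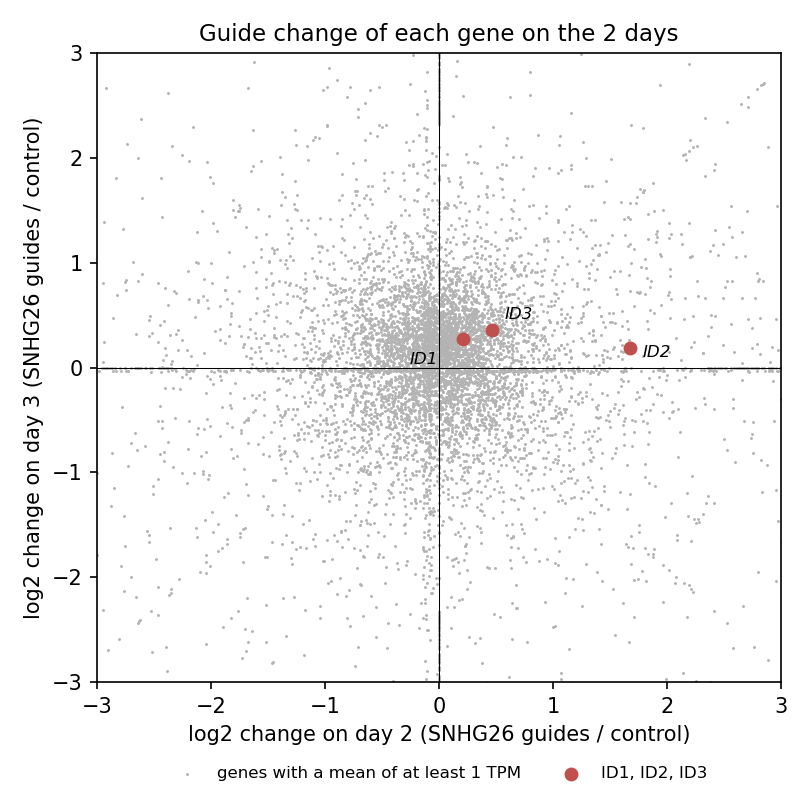
Log2 change of TPM + 1 between SNHG26 and control guides on day 2 (horizontal axis) and day 3 (vertical axis), with 1 grey point for each of 7472 genes inside the axes, and 802 genes beyond them not drawn. ID1, ID2 and ID3 (red) have values above 0 on both axes, ID1 at 0.21 and 0.27, ID3 at 0.46 and 0.36, and ID2 at 1.68 on day 2 and 0.18 on day 3.

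The day comparison set day 3 of doxycycline against day 2, with 1 library of each arm on each day. All 3 measured ID genes were higher on day 3 in both arms, and none passed the test. ID1 stood at 376 ± 50.1 TPM on day 3 and 255 ± 26.7 TPM on day 2 (SD, n = 2), and the days did not overlap. Its ratio was 1.4995 with the SNHG26 guides and 1.44 with the control guides. The log2 difference was 0.55 (SE 0.17), with a limma unadjusted p of 0.0350 and an adjusted p of 0.688. The value kept its sign when any 1 library was left out, running from 0.42 to 0.69.

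ID3 stood at 1269 ± 224 TPM on day 3 and 1052 ± 238 TPM on day 2 (SD, n = 2), with ratios of 1.17 and 1.26 in the knockdown and control arms. Its log2 difference was 0.28 (SE 0.23, limma adjusted p 0.760) and the days overlapped, with values of 0.05 without the control library of day 2, 0.10 without the SNHG26-guide library of day 3, 0.51 without the SNHG26-guide library of day 2 and 0.46 without the control library of day 3. ID2 stood at 70.0 ± 6.37 TPM against 43.1 ± 32.7 TPM (SD, n = 2), with ratios of 1.12 (SNHG26 guides) and 3.27 (control guides). Its log2 difference was 0.91 (SE 0.63, limma adjusted p 0.760), with 0.07 without the control library of day 2 and 1.75 without the SNHG26-guide library of day 2 (limma unadjusted p 0.0137, adjusted p from 0.307 to 0.904 over the libraries left out). Among all genes, 3 passed limma's threshold between the days (0.0363%) and 547 (6.61%) had an unadjusted p under 0.05, ID1 among the latter. Days that do not overlap, with day 3 higher, were seen for 17.1% of genes, and a higher level on day 3 in both arms for 24.3%, or 21.0% and 30.0% of the genes averaging 20 TPM or more.

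ID1, ID2 and ID3 thus shared 1 order of extremes: the control library of day 2 was the lowest and the SNHG26-guide library of day 3 the highest. Among all 8274 genes, 8.35% showed both patterns at once, higher with the SNHG26 guides on each day and higher on day 3 in each arm. At 20 TPM or more the share was 13.9%. The depth of the libraries, read as the most reads that the listed genes could hold, moved with these levels. It was 947338 in the control library of day 2 and 1044055 in the SNHG26-guide library of day 2. On day 3 it was 1135936 in the control library and 1220265 in the SNHG26-guide library. Reads outside the listed genes are not counted in it. That order is also the order of the ID1 levels, and its part in the differences was not tested. The guide comparison and the day comparison use the same 4 libraries, so the one does not back the other.

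Whether the guide difference itself changed from day 2 to day 3 was read from a contrast that crosses arm and day, taken as day 3 minus day 2. The value was -1.49 (SE 1.35, limma adjusted p 0.961) for ID2, -0.10 (SE 0.55, adjusted p 0.999) for ID3 and 0.06 (SE 0.67, adjusted p 0.999) for ID1 on the log2 scale. The ID2 value is the gap between a log2 guide difference of 1.68 on day 2 and 0.18 on day 3, and its error is nearly as wide. The main fit of this contrast had no term for arm or day, so its error is made of the arm and day differences. With both terms no residual degrees of freedom would remain. The errors, p-values and calls of this contrast therefore do not measure a spread of replicates. Over all genes the median of this contrast was 0.10, and limma passed 8 genes (0.0967%), none of them an ID gene, with 291 (3.52%) at an unadjusted p under 0.05.

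By likeness of profile, the centred log2(TPM + 1) values over the 4 libraries were compared with those of 1933 other genes with at least 20 TPM on average and a value in each library. Nearest to ID3 were QARS1, the glutaminyl-tRNA synthetase, at a root mean square difference of 0.0197, and PDLIM2 at 0.0498. EIF3A, a translation initiation factor subunit, stood nearest to ID1 at 0.0164, followed by PPP2R1A, a phosphatase scaffold subunit, at 0.0405. The closest to ID2 were RPS2P46 at 0.140 and RPS2P29 at 0.156, processed pseudogenes whose reads can be shared with RPS2. ID3 ranked 131 in likeness to ID1, at 0.167, and ID2 ranked 1601, at 0.549. With 4 libraries, many genes lie this close, and the ID genes were not each other's nearest.

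The rest of the pathway was read from lists of 65 genes by role, of which 24 are not analysed here. Of the 41 listed genes, 9 were at 0 in every library and 12 reached a mean of 1 TPM and were tested. None passed limma's threshold between the arms or between the days. Between the arms 4 were higher and 8 lower with the SNHG26 guides, with a median log2 difference of -0.26 against 0.04 over all genes tested. This median had no steady sign or size: it was 0.12 without the control library of day 3, -0.56 without the SNHG26-guide library of day 2, -0.15 without the SNHG26-guide library of day 3, -0.14 for genes averaging 5 TPM or more and -0.00886 with no filter. Between the days 4 were higher and 8 lower on day 3, with a median of -0.40 against 0.01. It was -0.21 with a pseudocount of 5, -0.22 at 5 TPM or more and -0.06 with no filter. The 8 lower genes of each comparison include CER1 and NOG, which had a value in the control library of day 2 alone. They passed the filter through that library, so their sign in both comparisons was fixed by it.

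Among the ligands, BMP4 was the one tested, and BMP7 had 0.0779 TPM in 1 library and BMP6 none. BMP4 stood at 1.96 and 0.921 TPM with the SNHG26 guides (day 2, day 3) and at 4.43 and 2.76 TPM with the control guides. The arms did not overlap, with the knockdown libraries lower, on at most 1.27 to 4.98 reads in a library. Of all 8274 genes tested, 13.2% showed this pattern. Its log2 difference was -0.92 (SE 0.48, limma adjusted p 0.935), opposite in sign to those of ID1, ID2 and ID3.

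Of the receptors, ACVR2B, a type II receptor shared by activins and BMPs, was tested and stood at 6.50 and 8.29 TPM against 6.69 and 9.98 TPM. The co-receptor ENG stood at 0.872 and 0 TPM against 0.758 and 0 TPM, and RGMA at 0.226 to 0.540 TPM. The type I receptor BMPR1A and the type II receptor BMPR2 lay under 0.1 TPM in every library. Their spans are long, and 1 read on such a span is worth little TPM.

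The SMADs that carry the signal were low in TPM. Their spans run from 55903 to 77983 bases, which lowers TPM per read, so low TPM need not mean few transcripts. SMAD5 rested on at most 3.75 to 20.1 reads in a library and SMAD1 on at most 5.73 to 16.1. SMAD5 stood at 1.46 and 2.35 TPM with the SNHG26 guides and at 0.860 and 0.450 TPM in the control arm. The log2 difference was 0.81 (SE 0.54, limma adjusted p 0.935). SMAD1, below the filter at a mean of 0.998 TPM, stood at 1.51 and 0.982 TPM against 1.01 and 0.493 TPM. SMAD4, the shared partner, was listed at 0 and 0 TPM against 0.161 and 0.269 TPM, the latter on at most 1.13 and 2.27 reads. SMAD9 was at 0 in every library.

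Inhibitors inside the cell included TOB1, an antiproliferative protein that can bind SMADs, at 28.2 and 11.1 TPM with the SNHG26 guides and 9.72 and 9.75 TPM with the control guides. SKIL, a co-repressor of SMAD complexes, stood at 2.09 and 5.10 TPM against 11.5 and 5.59 TPM. The log2 differences were 0.81 (SE 0.52) and -1.06 (SE 0.56), each with a limma adjusted p of 0.935, and both were larger on day 2 than on day 3. SKI, its relative, lay between 0.623 and 1.04 TPM. SMAD6, the inhibitory SMAD closest to SMAD7, was at 1.40 and 1.26 TPM with the SNHG26 guides and 0 with the control guides. These SMAD6 values equal 1 read in each knockdown library on the span of 5198 bases of 1 GENCODE transcript, so a difference between the arms was not detectable at this depth.

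Outside the cell, the secreted antagonists were led by FSTL1, at 11.04 and 8.67 TPM against 13.7 and 12.5 TPM. FST, which binds activin and some BMPs, stood at 11.02 and 5.27 TPM with the SNHG26 guides and 6.48 and 3.74 TPM with the control guides. CER1 and NOG had a value in the control library of day 2 alone, on 2 reads for CER1 and 1 read for NOG. For FSTL1 the log2 difference was -0.38 (SE 0.30) and for FST 0.54 (SE 0.50), with limma adjusted p-values of 0.935 and 0.938.

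Of the other BMP targets, TFAP2C, a transcription factor of the germline and trophoblast, was the one with a value. It stood at 4.38 and 1.96 TPM with the SNHG26 guides and 2.42 and 4.71 TPM with the control guides, on 6, 3, 3 and 7 reads. TBX3, HEY1 and ATOH8 were listed at 0 in every library. Of 12 genes fixed for this group 8 are not analysed here. So 1 of 4 listed genes of this group had a value, in every library, as did 3 of the 6 genes followed here. Of all 13693 protein-coding genes, 1873 were at 0 in every library.

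Among the partners of the ID proteins, TCF3, an E protein, stood at 23.1 and 17.3 TPM with the SNHG26 guides and 10.6 and 16.7 TPM with the control guides. Like the ID genes, it was lowest in the control library of day 2, but unlike them it was highest in the SNHG26-guide library of day 2. TOB1 was also lowest in that control library, while BMP4, SKIL, FSTL1, HES1, CER1 and NOG were highest there. The share of all genes lowest there was not computed. For TCF3 the log2 difference between the arms was 0.55 (SE 0.36, limma adjusted p 0.935). The other E proteins, TCF12 at 0.254 to 1.39 TPM and TCF4 under 0.12 TPM, have longer spans, which lowers TPM per read: TCF12 runs over 380659 bases, on at most 13.3 to 81.3 reads, and TCF3 over 43325 bases, on at most 57.1 to 137 reads. HES1, a bHLH repressor of the Notch pathway, stood at 5.64 and 0 TPM against 12.4 and 2.60 TPM, on 2, 0, 4 and 1 reads. It was lower on day 3 in both arms (limma unadjusted p 0.0478, adjusted p 0.739), opposite in sign to the ID genes, on these few reads.

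**Figure D3:**
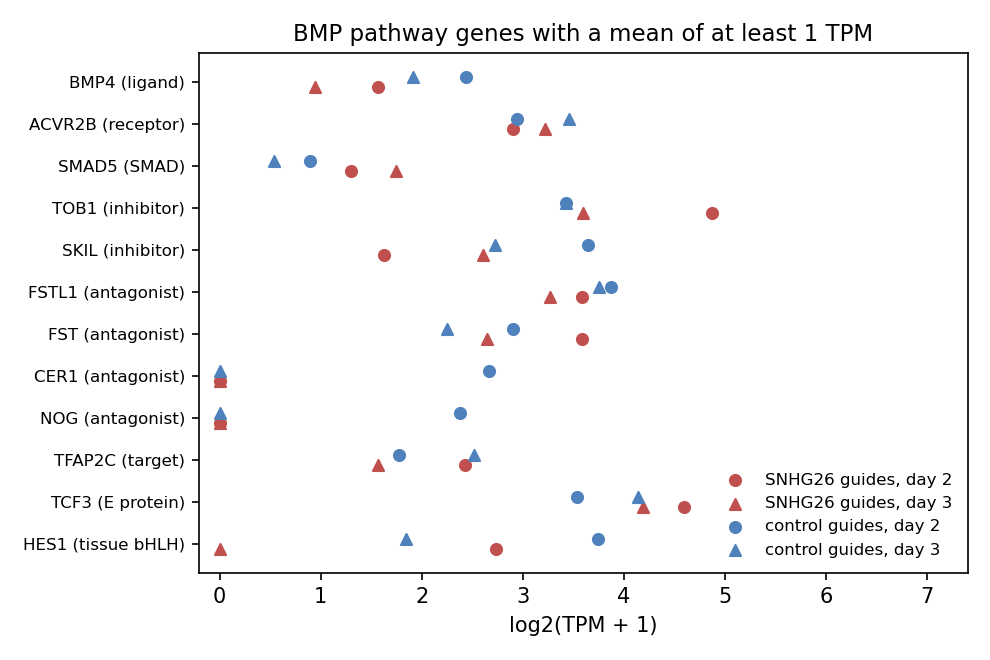
Log2(TPM + 1) of the 12 BMP pathway genes tested, 1 row per gene with its role, 1 symbol per library (red SNHG26 guides, blue control guides, circles day 2, triangles day 3). The arms do not overlap for BMP4, SKIL and FSTL1, with the control guides higher, or for SMAD5, TOB1 and TCF3, with the SNHG26 guides higher, patterns seen for 13.2% and 16.1% of all genes tested, and no gene passed the test.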

How the data were processed

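The deposited values are TPM per gene, 1 column for each library, made by the authors. The submitters' processing notes name minimap2 2.24-r1122 and GRCh38, and the counting tool, annotation and filters are not given in the sources used here. The commonest product of TPM and listed span gave the worth of 1 read, and all 13 mitochondrial mRNAs then came out as whole reads (within 0.01 read) in each library. Of all genes with a value, only 23.1% to 23.9% came out as whole reads on the listed span, depending on the library. BMPR2 came to 1.00, 1.00 and 2.00 reads in the 3 libraries where it had a value, on a listed span of 191425 bases that includes introns. Reads of a gene with several transcripts are estimates, and the listed genes can hold at most 947338 to 1220265 reads per library.

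Differences on log2(TPM + 1) were fitted in limma 3.58.1 (eBayes with a trend, R 4.3.3) for the 8274 genes averaging 1 TPM or more, and an adjusted p (Benjamini-Hochberg) under 0.05 passed. The script was tested on simulated data. Alternatives were the pseudocount, the filter, 2 scalings, no trend, a replicate block and leaving out each library. The block was the day for the arms, the arm for the days and the day for the crossed contrast. Named genes are the 6 members, the 3 highest of each pathway list, any with an adjusted p under 0.05, the 2 nearest profiles of each member with values, and SNHG26. BMPR1A, BMPR2, SMAD6, SMAD9 and NOG were added after their values were seen. Members and lists were chosen with earlier results of these data known. Promoters are from RefSeq, GRCh38.p14.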

Additional observations from a re-analysis of the deposited data

How the results depend on the processing

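ID2 and ID3 kept the sign of each of their differences under every alternative run, and none of ID1, ID2 and ID3 passed the threshold in any. ID1 between the arms turned to -0.0489 and -0.0194 when a library was left out (range -0.0489 to 0.53). Its crossed contrast turned to -0.10 with quantile normalization and -0.0622 with median ratio scaling, which moved the median of all genes from 0.10 to -0.00450. The crossed contrast cannot be formed without all 4 libraries. The numbers shared by the arms are days of doxycycline, and the same-day libraries deviate from the 2 arm averages with a correlation of only 0.0464. With the replicate block ID3 had an unadjusted limma p of 0.0291 between the arms and an adjusted p of 0.908, and no call on an ID gene changed. The count of genes passing between the arms was 0 in each setting. Between the days the 3 genes became 0 with quantile normalization, no filter, a pseudocount of 0.1 or 5, no trend, the replicate block, and without each library (0 to 0). The 8 genes of the crossed contrast became 14 with a pseudocount of 0.1 and 13 with at least 5 TPM, and 0 with a pseudocount of 5, no filter, no trend or the replicate block. The cause was not tested. The shares of genes at 20 TPM or more were added after seeing the data. Of the 6 genes ID4, SMAD7 and BAMBI rest on 0 reads, and ID2 on about 6 in its lowest library.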
